A study of Homo sapiens with 2 samples.

Results

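The plasminogen activator system was described here by 6 genes, of 30396 gene names on the array: the urokinase gene PLAU, its receptor gene PLAUR, the tissue-type activator gene PLAT, the plasminogen gene PLG, and the inhibitor genes SERPINB2 and SERPINE2. They were taken by gene name and carried 10 probes on 28 spots of each array. Of the 10 probes, 7 were well above background on both arrays, and the other 3, all for PLG, were so on neither array. No spot of any of the 10 probes was marked as non-uniform or as an outlier.

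Urokinase and the tissue-type activator are secreted serine proteases that cut plasminogen into plasmin, a broad protease that degrades fibrin and parts of the extracellular matrix. Urokinase bound to its receptor concentrates this activity at the cell surface, while serpins such as PAI-2 (SERPINB2) and protease nexin-1 (SERPINE2) trap the activators in inactive complexes. The system is known in squamous carcinoma for its part in invasion, and plasminogen itself is made mainly by the liver and reaches cells from plasma or serum.

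The study compared SAS cells, an established line from a human tongue squamous cell carcinoma, with eSAS cells, which were derived from them by 5 rounds of enrichment for large spheroids with a filter tool called Spheroid Catch. It asked whether gene expression differs between the enriched and the parental cells. Total RNA of each was taken during log growth, copied from the poly(A) end with oligo-dT primers, labelled with Cy3 and hybridised to 1-colour whole human genome arrays. There was 1 array of SAS and 1 array of eSAS, both on the same slide. The sources used here give neither a genetic change nor a drug as part of either group. The study's methods also describe growing a line from a single selected cell, and whether the eSAS cells on the array came from 1 cell is not given in the sources used here.

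Because each group is 1 array, SAS and eSAS cells could not be compared by a test, and no p-value was computed. The effects of selection, culture and hybridisation cannot be told apart. Errors below are between replicate spots, between probes of like brightness, or from the scanner software, and none of them covers the spread between cultures. Precision is limited by having so few arrays. Values are processed signals, which are linear intensities with the background removed, and differences are log2 ratios of eSAS to SAS after each signal was divided by the 75th percentile of its array (1242 on SAS and 1196 on eSAS). Over the 26659 probes well above background on both arrays the median log2 ratio was -0.0039 with an SD of 0.36, and 92.0% of these probes lay within 1.5-fold.

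The labelled cell type was checked against its markers. All 8 squamous epithelial markers (CDH1, EGFR, KRT14, KRT17, KRT5, KRT6A, SFN and TP63) were well above background on both arrays. Of these, 7 were lower in eSAS, with a median log2 ratio of -0.51 and a range from -3.90 to 0.10, and the sum of their brightest probes was 65881 on SAS and 40223 on eSAS. Of 6 fibroblast markers only COL1A1 was well above background on SAS and only LUM on eSAS, and COL1A2, COL3A1, DCN and PDGFRA were so on neither array. The summed signal of the fibroblast list was 50.8 on SAS and 60.7 on eSAS. Of 4 endothelial markers, 2 passed on SAS and 1 on eSAS (sums 115 and 99.4), without KDR and PECAM1. Of 5 macrophage markers CD14 and CSF1R passed, with list sums of 993 and 977, and CD163, LYZ and PTPRC did not. Of 4 hepatocyte markers SERPINA1 alone passed (sums 4947 and 5249), and ALB, APOA1 and TTR were well above background on neither array. The part of the lower squamous markers in the results below was not tested. In bulk RNA, fewer cells of a type and less RNA per cell cannot be told apart.

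No member probe differed by 2-fold or more in either direction. Over the 28439 probes tested, which were well above background on SAS, on eSAS or on both, 1.83% were higher and 1.97% lower in eSAS by that much. At a limit of 1.5-fold, chosen after the values were seen, 2 of the 7 member probes were higher and 2 were lower in eSAS, against 4.43% and 6.12% of all probes tested. The higher probes were both for SERPINB2, and the lower ones were for PLAU and SERPINE2. Counted by gene, 1 member was higher and 2 were lower, where 4.73% and 6.35% of 20871 genes were. The median log2 ratio of the 7 member probes was 0.30, which is the value of PLAT, and that of the 6 member genes was 0.23.

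**Figure D1:**
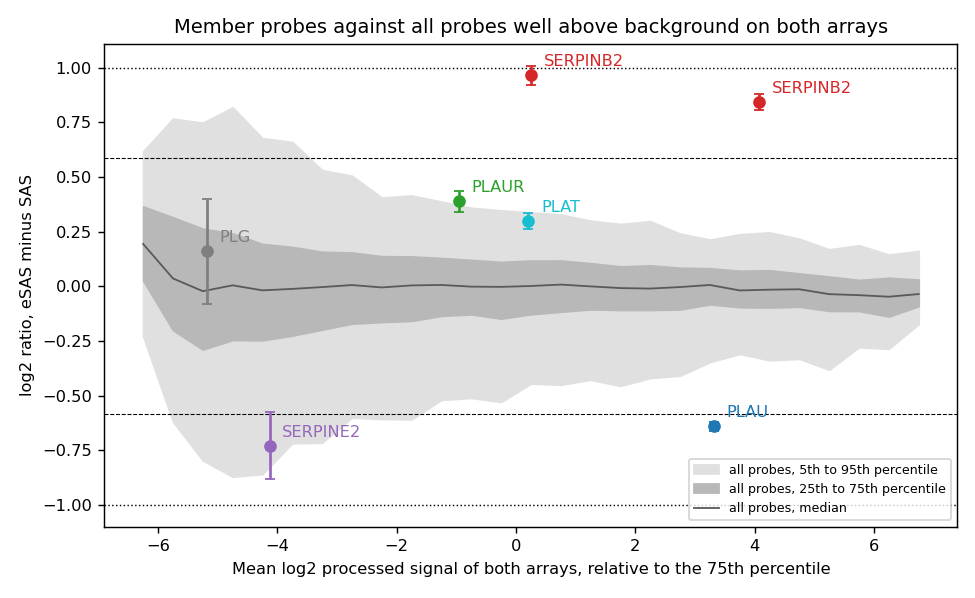
Each point is 1 member probe, with the log2 ratio of eSAS to SAS on the vertical axis and the mean log2 processed signal of both arrays, relative to the 75th percentile, on the horizontal axis. Error bars are 1 SD of the log2 ratio between replicate spots, of the probe itself for PLAU and PLAT and of replicated probes of like brightness for the others. The grey bands hold all probes well above background on both arrays, the dashed lines mark 1.5-fold and the dotted lines 2-fold. Both SERPINB2 probes and, by little, PLAUR lie above the wider grey band and PLAU lies below it, while PLAT, PLG and SERPINE2 lie inside it.

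The DNA before the transcription start of 3 members is shown because they stand at different places in this comparison: PLAU was lower in eSAS, SERPINB2 was higher, and PLAUR lay between them. The sequences are from RefSeq on GRCh38.p14 and each holds the 250 bases up to the start, read on the strand of the gene. They span chr10:73910882-73911131 on the plus strand for PLAU, chr19:43670170-43670419 on the minus strand for PLAUR and chr18:63887455-63887704 on the plus strand for SERPINB2. Capitals mark matches to 3 short motifs searched on both strands, namely TGANTCA (the AP-1 element), TATAAA (the TATA box) and GGGCGG (the GC box, bound by SP1).
PLAU: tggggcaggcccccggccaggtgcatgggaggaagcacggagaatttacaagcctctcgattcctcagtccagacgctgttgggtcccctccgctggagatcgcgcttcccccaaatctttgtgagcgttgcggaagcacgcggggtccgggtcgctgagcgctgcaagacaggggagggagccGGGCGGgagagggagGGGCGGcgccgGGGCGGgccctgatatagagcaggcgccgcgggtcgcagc
PLAUR: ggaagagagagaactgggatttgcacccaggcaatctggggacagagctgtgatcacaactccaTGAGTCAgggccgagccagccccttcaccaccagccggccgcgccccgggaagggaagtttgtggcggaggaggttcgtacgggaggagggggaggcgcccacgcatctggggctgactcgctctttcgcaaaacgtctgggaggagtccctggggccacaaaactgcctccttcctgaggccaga
SERPINB2: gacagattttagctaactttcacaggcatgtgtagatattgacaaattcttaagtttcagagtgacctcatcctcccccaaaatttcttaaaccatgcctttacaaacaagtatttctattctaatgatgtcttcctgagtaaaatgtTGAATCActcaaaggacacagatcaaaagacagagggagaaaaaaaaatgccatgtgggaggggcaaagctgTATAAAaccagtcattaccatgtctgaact
The PLAU sequence, at 68.8% G and C, held 3 GC boxes that begin 66, 51 and 40 bases before the start, and neither of the other motifs. A second PLAU start in the annotation, with its window at chr10:73910360-73910609, held none of the 3 motifs. The PLAUR sequence held 1 AP-1 element, 186 bases before the start. SERPINB2, at 37.2% G and C, held an AP-1 element 102 bases and a TATA box 30 bases before the start. Of 35116 RefSeq promoter windows of the same length, 6.57% held the AP-1 letters and 42.6% the GC box letters, and the TATA letters were in 3763 windows. The windows of both annotated SERPINE2 starts held GC boxes only, and those of both PLG starts held no match. The promoter of PLAT was not searched, so the matches do not cover all members. A match describes letters in a window and was not tested as a binding site. Whether the matches have a part in the ratios was not tested either.

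The gene for urokinase was lower in eSAS cells. PLAU had 1 probe (NM_002658), at chr10:75347056-75347115 in hg18, which was spotted 10 times on each array. On SAS its lowest, median and highest processed signals were 14645, 15266 and 16509. On eSAS they were 8777, 9523 and 10201. The arrays did not overlap, and every one of the 10 spots was lower on eSAS than on SAS.

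The mean PLAU signal was 15472 ± 621 on SAS and 9559 ± 434 on eSAS (SD over 10 spots), a coefficient of variation of 4.01% and 4.54%. The log2 ratio was -0.64 with a spot SD of 0.020 and a range from -0.68 to -0.62, which is 1.56-fold lower in eSAS. This difference was larger than the spread between spots. The scanner software's own error for a spot was wider, at 1547 on SAS and 956 on eSAS, and the difference between the means exceeded it too. Among 2491 probes within 2-fold of the brightness of PLAU, the median log2 ratio was -0.0093 and 2.09% were lower by 1.5-fold or more. Over all probes measured on both arrays 4.07% had a lower ratio than PLAU, and of 211 probes with replicate spots it had the 9th lowest. Spots next to those of PLAU had a median log2 ratio of -0.028.

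Spots of one probe rose and fell together across the slide. The brightest PLAU spot lay in row 384 and the dimmest in row 28 on both arrays. Within an array the log2 signals of the PLAU spots had an SD of 0.057 on SAS and 0.066 on eSAS, against 0.020 for their ratio, so the spots disagreed more about the level than about the difference.

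PLAT, the gene for the tissue-type activator, moved the other way by a smaller amount. Its probe (NM_000930, chromosome 8) was also spotted 10 times. On SAS the lowest, median and highest processed signals were 1184, 1297 and 1436, and on eSAS 1372, 1513 and 1699. The ranges of the arrays overlapped, yet each of the 10 spots was higher on eSAS than the spot in the same place on SAS.

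For PLAT the means were 1294 ± 86.2 on SAS and 1533 ± 113 on eSAS (SD over 10 spots), with coefficients of variation of 6.66% and 7.38%. The log2 ratio was 0.30, with a spot SD of 0.035 and a range from 0.22 to 0.34, or 1.23-fold higher in eSAS. Its size was above the spread of the spot ratios but within 1.5-fold, and 9.98% of all probes measured on both arrays had a higher ratio. The software's error for a PLAT spot was 129 on SAS and 153 on eSAS. Of its spots, 2 lay in rows 450 to 510, a stretch where 183 of the 194 spots marked non-uniform on SAS lay, and without them the log2 ratio was 0.31 over 8 spots. The spot in row 173 was the brightest and that in row 465 the dimmest on both arrays.

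**Figure D2:**
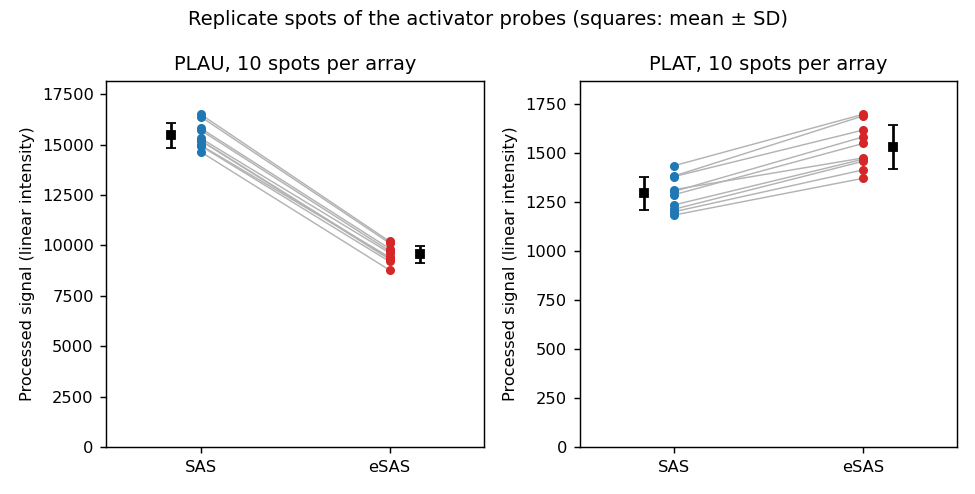
The panels show the processed signal (linear intensity, axis from 0) of the 10 spots of the PLAU probe and of the PLAT probe on the SAS and eSAS arrays, with a line joining spots at the same place and squares with bars for the mean ± SD over spots. Every PLAU line falls from SAS to eSAS and every PLAT line rises. The spots of PLAU do not overlap between the arrays and those of PLAT do.

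PLAUR encodes the GPI-anchored receptor that holds urokinase at the cell surface. Its 1 probe (NM_001005377, hg18 chr19:48861338-48861397) was a single spot with a processed signal of 560 on SAS and 706 on eSAS. The signal was higher on eSAS by 1.31-fold, a log2 ratio of 0.39. The software's error was 56.1 on SAS and 70.7 on eSAS.

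The PLAUR ratio exceeded the spot SD of 0.049 seen for 41 replicated probes of like brightness. It stayed below 1.5-fold, and 6.55% of probes had a higher ratio. Of 8 adjacent spots, 7 were well above background, and their median log2 ratio was 0.19 in the same direction. Whether the place on the slide has a part in the PLAUR value was not tested.

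PLG encodes plasminogen, the precursor of plasmin. It had 4 probes (NM_000301), all single spots on chromosome 6 of hg18. The probe at chr6:161072912-161075072 gave a processed signal of 32.3 on SAS and 34.7 on eSAS, with software errors of 4.66 and 5.20. Its log2 ratio of 0.16 was smaller than the spot SD of 0.24 for 12 replicated probes of like brightness, so no difference could be seen at this signal. Its spot lay in row 472, within rows 450 to 510.

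At the other PLG probes the signal was not well above background on either array. The probe at chr6:161075059-161077913 had 6.88 on SAS and 5.13 on eSAS. The probe at chr6:161094201-161094260 had 2.87 and 3.35, and the overlapping one at chr6:161094221-161094280 had 2.86 and 4.14. These signals are below the lowest signal of any probe well above background, 12.8 on SAS and 15.2 on eSAS, and no fold is given for them.

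PLG has near copies in the genome, and they were looked at after the PLG values were seen. Both PLGLB1 probes were well above background on both arrays, with processed signals of 35.1 on SAS and 32.5 on eSAS at one and 39.2 and 38.0 at the other. A PLGLB2 probe had 274 on SAS and 231 on eSAS (log2 ratio -0.19), and the other PLGLB2 probe and both LPA probes were well above background on neither array. The array files used here pair probes with gene names and hold no probe sequence, so whether RNA of a near copy gives the PLG signal was not tested.

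SERPINB2 encodes PAI-2, an inhibitor of urokinase that is abundant in squamous epithelia and stays largely inside the cell. It was the member with the largest positive ratio, and its 2 probes lay on separate stretches of chromosome 18. The probe at chr18:59721938-59721997 (hg18, listed as ENST00000299502) had a processed signal of 15600 on SAS and 26924 on eSAS. The probe at chr18:59721182-59721241 (NM_002575) had 1055 on SAS and 1985 on eSAS. Both were higher on eSAS.

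The log2 ratio of SERPINB2 was 0.84 at the first probe and 0.97 at the second, or 1.79-fold and 1.95-fold. The probes differed from each other by 0.12 on the log2 scale. Under the other scalings, background corrections and filters, apart from 1 correction, they lay between 0.787 and 0.876 and between 0.911 and 0.999. The exception was normexp, another background correction, fitted to all spots, where they were at 0.26 and 0.70. Relative to the median of all probes they were then at -0.27 and 0.17. That correction moved the median of all probes to 0.53 and their SD to 1.15. Replicated probes of like brightness had spot SDs of 0.036 and 0.043, and the software's errors were 1560 and 2692 for the first probe and 106 and 198 for the second. Among probes within 2-fold of the brightness of each, 0.536% and 1.40% were higher by 1.5-fold or more. Over all probes measured on both arrays 1.34% had a higher ratio than the first and 0.994% than the second. The median log2 ratio of the spots adjacent to each was 0.038 and -0.044.

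SERPINE2 encodes protease nexin-1, an extracellular inhibitor of urokinase, of the tissue-type activator, of plasmin and of thrombin. Its 1 probe (NM_006216, hg18 chr2:224548841-224550539) was a single spot with a processed signal of 91.3 on SAS and 53.1 on eSAS. The software's errors were 9.56 and 6.26. The signal was lower on eSAS, with a log2 ratio of -0.73, or 1.66-fold.

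This SERPINE2 difference exceeded the spot SD of 0.15 for 19 replicated probes of like brightness, but it came from a dim spot. Of 5332 probes within 2-fold of its brightness, 8.85% were lower by 1.5-fold or more, a larger share than at the brightness of PLAU. Its value also varied with the handling of the background. With 3 other settings it lay between -0.36 and -0.40, below 1.5-fold, and with normexp fitted to all spots it turned to 1.97. Under that last correction 47.5% of all probes were at least 1.5-fold higher. The 3 settings were no background correction, and normexp without marked local backgrounds on mean or median pixels, with an offset of 50. Background left in, or an offset, draws the ratio of a dim probe towards 0, so they cannot decide the size of the SERPINE2 difference.

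Differences between the log2 ratios of 2 probes do not depend on any constant factor by which an array is scaled. SERPINB2 exceeded PLAU by 1.48 at the first SERPINB2 probe and by 1.61 at the second, so the signal of SERPINB2 relative to that of PLAU was 2.79-fold and 3.04-fold higher in eSAS. SERPINB2 exceeded SERPINE2 by 1.57 and 1.69, or 2.97-fold and 3.24-fold. The receptor probe exceeded the PLAU probe by 1.03, or 2.04-fold, and PLAT exceeded PLAU by 0.94, or 1.92-fold. Between SERPINB2 and PLAT the difference was 0.54 and 0.67, and between SERPINB2 and PLAUR it was 0.45 and 0.58. These comparisons were chosen after the values were seen. They show unequal change of these probes and not that any of them was unchanged.

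In order of log2 ratio the members were SERPINB2, PLAUR, PLAT, PLG, PLAU and SERPINE2. PLAUR and PLAT, 0.39 and 0.30, lay within 2 spot SDs of each other by the SD at the brightness of PLAUR (0.049). They did not by the SD of PLAT's own spots (0.035), so their order depends on the SD used. PLG could not be told from either at its signal. PLAU and SERPINE2, -0.64 and -0.73, differed by less than the spot SD of 0.15 at the brightness of SERPINE2. SERPINB2 stood above the rest, and PLAU and SERPINE2 stood below, by more than these spreads.

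**Figure D3:**
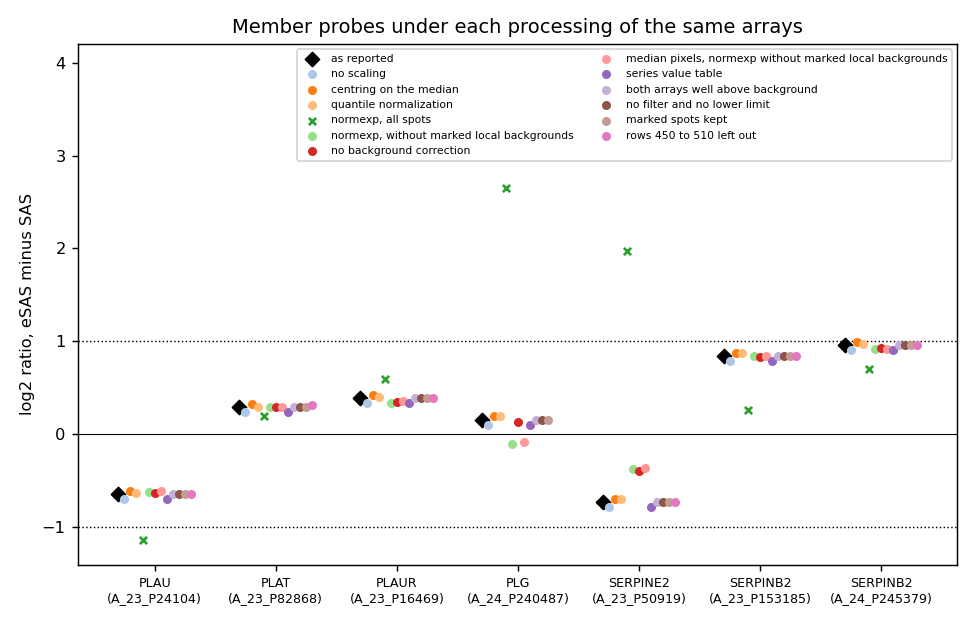
For each of the 7 member probes well above background on both arrays, the log2 ratio of eSAS to SAS (vertical axis) is shown as reported (black diamond) and under each other scaling, background correction or filter applied to the same 2 arrays (coloured points). The dotted lines mark 2-fold. PLAU stayed below 0 and SERPINB2, PLAT and PLAUR above 0 in every setting, SERPINE2 and PLG spread more, and the crosses of normexp fitted to all spots lie apart. Under that fit the median of all probes was itself 0.53. Relative to that median the brighter SERPINB2 probe was at -0.27 and PLAT at -0.34, and PLAUR was at 0.066.

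Other genes that act in or around the system were taken from a list of 35, all of which are on the array. Of these, 24 could be tested because a probe was well above background on either array, and 11 could not. By 2-fold or more, 1 of the 24 tested genes was higher in eSAS and 0 were lower, where 2.03% and 2.13% of all genes were. The median log2 ratio of the 22 genes measured on both arrays was 0.033, and 15 of them lay within 0.2 of 0.

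The inhibitors of plasmin or of plasminogen binding held the only gene past 2-fold. A2M, which encodes the broad protease inhibitor alpha-2-macroglobulin, had a processed signal of 172 on SAS and 3514 on eSAS at its 1 probe. That is a log2 ratio of 4.41, or 21.2-fold higher in eSAS, from a single spot on each array. SERPINF2, which encodes alpha-2-antiplasmin, the main plasma inhibitor of plasmin, had 18.7 on SAS and 19.0 on eSAS (log2 ratio 0.08). The other 2 genes of this role, CPB2 and TFPI2, were well above background on neither array.

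All 5 genes for plasminogen binding at the cell surface were measured, and S100A10 had the lowest ratio. S100A10 encodes p11, whose carboxy-terminal lysine binds plasminogen, and its processed signal was 63565 on SAS and 38333 on eSAS, a log2 ratio of -0.68 or 1.60-fold lower. Its partner ANXA2, named here after its values were seen, had a mean log2 ratio of 0.11 over 3 probes. The highest ratio in this role was that of PLGRKT, a plasminogen receptor listed on the array as C9orf46, with 754 on SAS and 835 on eSAS (log2 ratio 0.20).

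In the contact system F12, the zymogen of factor XIIa, was measured at 9685 on SAS and 9519 on eSAS (log2 ratio 0.03), while KLKB1 was well above background on neither array. The same held for HABP2, which was listed in the same role, and for SERPINA5 and SERPINI1, the other inhibitors of the activators. Among 11 genes for clearance and co-receptors of the urokinase receptor, 9 were tested and none reached 1.5-fold. The highest was VTN, the matrix protein vitronectin that also binds the urokinase receptor, with 73.9 on SAS and 82.0 on eSAS (log2 ratio 0.20). The lowest was LRP1, the endocytic receptor for activator and inhibitor complexes, with a mean signal of 20.3 on SAS and of 15.7 on eSAS, where most of its spots were not well above background (log2 ratio -0.34). Among 10 substrates and targets 7 were tested, and they ran from HGF, the growth factor activated by proteolysis, with 37.4 and 39.3 (log2 ratio 0.13), to LTBP1, a matrix anchor of latent TGF-beta, with 20.6 on SAS and 16.2 on eSAS, where it was not well above background (log2 ratio -0.29). The fibrinogen chain genes FGA, FGB and FGG were well above background on neither array.

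**Figure D4:**
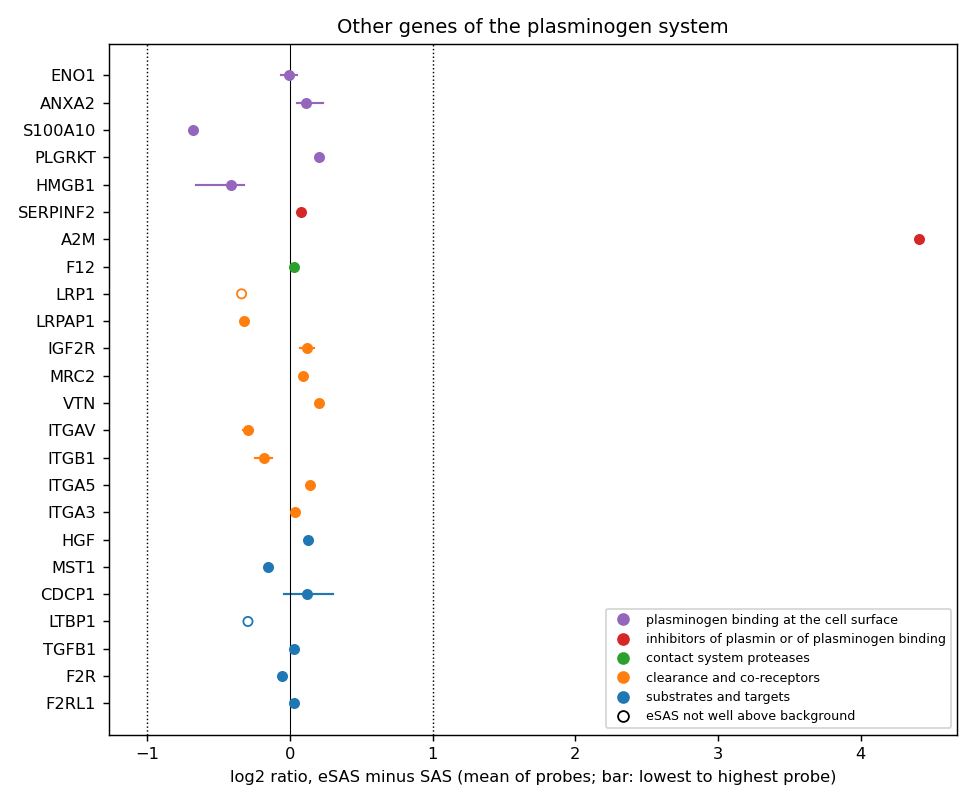
Each row is 1 of the 24 tested genes of the wider plasminogen system, coloured by role, with the log2 ratio of eSAS to SAS on the horizontal axis as the mean over probes and a bar from the lowest to the highest probe. Open circles are genes not well above background on eSAS, and dotted lines mark 2-fold. A2M at 4.41 lies apart from all other genes, and S100A10 at -0.68 has the lowest value.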

How the data were processed

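The authors deposited, for each array, the spot table of Agilent Feature Extraction 10.7.3.1 (per the labels), with 45015 spots and linear intensity values. In the processed signal, background and spatial trend had been removed, with no scaling between arrays. The authors' table for the whole series was equal to it for 45015 of 45015 spots on each array, with a median of 113 (SAS) and 106 (eSAS). Of the 43376 probe spots, 69.4% (SAS) and 67.5% (eSAS) were well above background and 0 were saturated.

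Here each signal was divided by the 75th percentile of its array and put on the log2 scale. Control spots and marked spots were left out, spots of a probe were averaged, and a probe had to have over 50% of its spots well above background to count as such. Where a probe was dim on one array, the lowest signal well above background there took its place if it was higher. Brightness was matched within 2-fold, and 8 spots were taken as adjacent. Of 40814 probes, 23815 were named by RefSeq accession (GRCh38.p14 gene table), 2742 by symbol, 1030 by an older symbol and 13227 kept the name on the array. Probe positions are in hg18, for which no annotation was used here, so exon or UTR is not given.

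The members, gene lists and limits were chosen with earlier results of these data known. Named are all members, list genes past 2-fold, and the highest and lowest gene of each role. The limit of 1.5-fold, the differences between 2 probes and the ratios relative to all probes were chosen after the values were seen. Counting was tested on simulated data made from the SAS array, with less noise than the real ratios and changes planted only in brighter probes. That check gives no rate of false calls for the real arrays or for dim probes. Alternatives were other scalings, background corrections and filters. The software was Python 3.11.15 with pandas 2.3.3 and numpy 2.4.6, and limma 3.58.1 under R 4.3.3.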

Additional observations from a re-analysis of the deposited data

How the results depend on the processing

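No paired analysis was possible because each condition has 1 array, and the slide was not used as a block because both arrays lie on 1 slide. Quantile normalization, centring on the median, no scaling, the authors' series table, other filters, marked spots kept and rows 450 to 510 left out kept every count and median of the members and of the wider list within 1.5 times (counts) or the replicate spot SD of 0.0795 (medians), although the median of the wider list ran from -0.02 without scaling to 0.067 with centring. Leaving out those rows took the only PLG probe with a signal, so that 6 member probes were tested.

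Normexp with an offset of 50 fitted to all spots gave other values. Member probes at least 2-fold apart were then 2 higher and 1 lower, at least 1.5-fold apart 4 higher and 1 lower, and their median log2 ratio was 0.60. Pathway genes at least 2-fold apart were 7 higher and 1 lower, with a median of 0.38. SERPINE2 turned to 1.97 (1.44 relative to the median of all probes), and SERPINB2 at its brighter probe was at -0.27 and PLAT at -0.34 relative to that median. Over all probes 11264 were then at least 2-fold higher, with a median of 0.53 and an SD of 1.15.

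Normexp without 26 spots of marked local background, the same with median pixels, and no background correction each left 1 member probe at least 1.5-fold lower, PLAU, since SERPINE2 fell short. An offset, or background left in, draws the ratios of dim probes towards 0, so this does not settle the SERPINE2 value. These settings also gave fewer calls over all probes at 2-fold: 86 higher and 156 lower, 89 and 134, and 125 and 161, against 520 and 559 as reported. Requiring both arrays well above background gave 250 and 335, and no filter gave 1375 and 1536. Over all alternatives PLAU lay between -1.14 and -0.61, and SERPINB2 minus PLAU between 1.40 and 1.497 at the brighter probe and between 1.53 and 1.84 at the other. The PLG probe turned negative, to -0.10 at the lowest, under 2 of them. With normexp fitted to all spots it rose to 2.65, or 2.12 relative to the median of all probes. Among the members and list genes named here, dim signal limits PLG, SERPINE2, SERPINF2, VTN, HGF, LRP1 and LTBP1, where small changes cannot be seen.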

Other observations

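The 10 replicate spots of PLAU and PLAT allow the scanner software's error to be set beside the spread that was observed. For PLAU the software gave 1547 on SAS and 956 on eSAS per spot, where the SD between spots was 621 and 434. For PLAT it gave 129 and 153 against 86.2 and 113. Over all 211 probes with replicate spots the SD of the log2 ratio between spots had a median of 0.039 and ran from 0.012 to 0.40, and by 1.5-fold or more 11 of these probes were higher and 10 lower in eSAS.

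HMGB1, which encodes a chromatin protein that can also bind plasminogen at the cell surface and is named here after its values were seen, had a log2 ratio below 0 at all 4 of its probes, from -0.66 to -0.32 with a mean of -0.42.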
